A study of Mus musculus with 4 samples.

Results

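Sod1, Sod2, Cat, Gpx1, Gpx4, Prdx1, Hmox1, Nqo1, Gclc and Gclm, 10 genes that protect cells from reactive oxygen, were followed in mouse blastocysts made by somatic cell nuclear transfer (SCNT) and by in vitro fertilization (IVF). They were taken by symbol, and all 10 were found among the 23235 gene symbols of the deposited tables. In SCNT an oocyte is stripped of its own nucleus and given that of a somatic cell. Each group had 2 RNA-seq libraries, and each library was made from 6 pooled embryos lysed at the early blastocyst stage, 96 hours after activation or fertilization. SCNT embryos received nuclei of mouse embryonic fibroblasts that were heterozygous for an Xist knockout, from 129S1/SvImj mothers and CAST/EiJ fathers, placed in oocytes of B6D2F1/J (BDF1) females. IVF embryos came from Xist KO oocytes of the 129S1/Svj background and WT sperm of the CAST/EiJ background. The labels give both groups the strain 129S1/Svj x CAST/EiJ, and the mothers of the donor fibroblasts were themselves Xist KO, but the cytoplasm of the SCNT embryos came from another strain. The headers of the SCNT files also name Kdm4d, which encodes a histone demethylase. The labels are silent on it, so whether it was supplied to these embryos is unknown here.

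Reactive oxygen is cleared in steps. Superoxide dismutases turn superoxide into hydrogen peroxide, and catalase, glutathione peroxidases and peroxiredoxins remove the peroxide, the glutathione peroxidases at the cost of glutathione. Glutathione is made from glutamate, cysteine and glycine, and its slow step is run by glutamate-cysteine ligase, an enzyme of a catalytic and a modifier subunit. Many of these genes are induced by the transcription factor Nrf2, which the adaptor Keap1 holds low in unstressed cells, and which binds the antioxidant response element. In early embryos this system is known for its bearing on survival in culture, where oxygen is higher than in the oviduct.

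The values were taken to be FPKM, sequenced fragments scaled to transcript length and to the mapped total, so levels can be set side by side between genes. Their sum was 956773 and 976790 FPKM in SCNT libraries 1 and 2, against 933167 and 985197 FPKM in IVF libraries 1 and 2. MicroRNA and small nucleolar RNA genes held 9.50% and 9.73% of this sum in SCNT libraries, against 12.4% and 12.2% in IVF libraries, and their part in the differences below was not tested beyond a rescaling without them. All 7 trophectoderm, 9 inner cell mass and 6 primitive endoderm markers reached 1 FPKM in at least 1 library. The trophectoderm markers summed to 5971 and 3904 FPKM in SCNT, against 4363 and 3577 FPKM in IVF, most of it Krt8 and Krt18. Within that list SCNT stood wholly above IVF for the trophoblast transcription factor genes Elf5 (17.9 and 9.50 FPKM in SCNT, against 3.23 and 3.88 FPKM in IVF), Eomes (43.5 and 24.3 FPKM, against 18.8 and 14.2 FPKM) and Cdx2 (36.6 and 29.5 FPKM, against 20.0 and 21.7 FPKM). Gata3, Tfap2c, Krt8 and Krt18 of that list overlapped between the groups, with Tfap2c estimated lower in SCNT. None of the 7 passed (limma adjusted p from 0.320). At an unadjusted p under 0.05 there were 3, all higher in SCNT, where 4.25% of all tested genes were. SCNT stood wholly above IVF for 3 of the 7, where 18.3% of all tested genes did. The list's median SCNT minus IVF difference was 0.40 in log2(FPKM + 1), against 0.013 over all genes tested. The medians of the inner cell mass and primitive endoderm lists were 0.051 and -0.039. SCNT stood wholly above IVF for 3 of 9 inner cell mass and 2 of 5 tested primitive endoderm markers, and wholly below for none. At an unadjusted limma p under 0.05 these lists held 0 and 1 genes, the latter being Gata4, higher in SCNT. The part of these lineage markers in the differences below was not tested. Markers of fibroblasts, the donor cells, summed over 10 genes to 6.34 and 1.18 FPKM in SCNT, against 3.49 and 1.65 FPKM in IVF. Twist2 among them was at 0 throughout, and Col1a1 was the highest, at 3.38 FPKM in SCNT library 1. Twist1 (0.521 and 0.658 FPKM in SCNT, against 1.57 and 1.10 FPKM in IVF) and Thy1 were wholly lower in SCNT. Prrx1 was wholly higher, at or under 0.102 FPKM. Oocyte markers (8 genes) summed to 3.87 and 1.92 FPKM in SCNT and to 5.90 and 2.62 FPKM in IVF. Cumulus and granulosa markers stayed at or under 0.344 FPKM each, with Amh and Cyp19a1 at 0 throughout. In such bulk samples fewer cells of a type and less RNA per cell cannot be told apart. The labels do not tell whether a group's libraries had separate parents or dates, so the p-values reflect library spread alone, which may be technical.

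Differences are given as SCNT minus IVF on the log2(FPKM + 1) scale, which understates the change of low genes, and were tested with limma across 11039 genes. An exact permutation test of 2 libraries against 2 cannot go below p = 0.333 (two-sided), so single genes were not tested that way. None of the 10 genes passed at a Benjamini-Hochberg adjusted p under 0.05, where 0.127% of all tested genes did (0.0725% higher and 0.0544% lower). For Gclm, Nqo1 and Sod1 both SCNT libraries lay below both IVF libraries. No member was higher in both. Over all tested genes such a separation occurred for 15.1% in the lower and 18.3% in the higher direction, so 3 separated members of 10 lie near the 33.4% for either direction. At an unadjusted p under 0.05 there were 2 members, Gclm and Nqo1, both lower in SCNT, where 2.84% of all genes were lower and 4.25% higher. The median difference of the 10 genes was -0.091, against 0.013 over all genes tested, with 4 estimates above and 6 below 0.

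**Figure D1:**
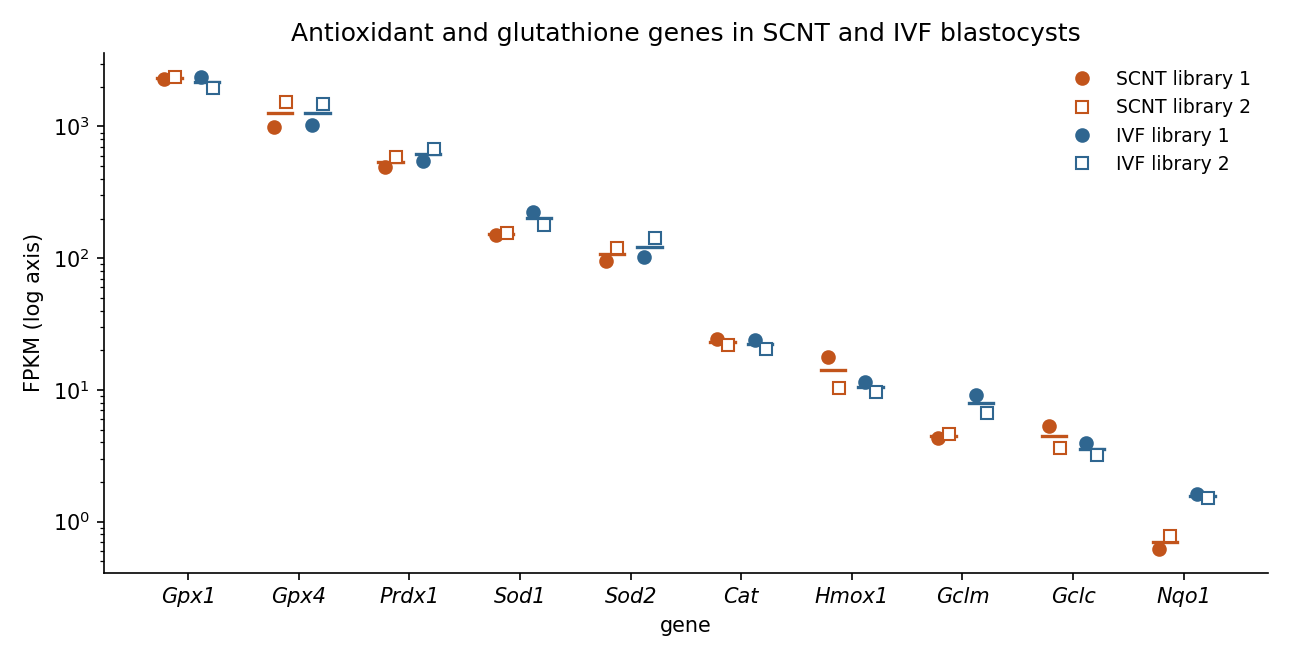
FPKM (log axis) of the 10 genes in each library, SCNT left of IVF, ordered by the SCNT mean; filled circles are library 1, open squares library 2, short lines group means. Levels run from 2352 FPKM for Gpx1 to 0.702 FPKM for Nqo1 in SCNT, and the groups separate for Sod1, Gclm and Nqo1.

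The 10 genes spanned more than 3 orders of magnitude. Gpx1, the cytosolic glutathione peroxidase, was the most abundant and ranked 74 and 67 among all genes in the SCNT libraries, against 57 and 80 in the IVF libraries. Gpx1 and Gpx4 together made up 80.7% and 81.2% of the summed FPKM of the 10 genes in SCNT, against 78.6% and 76.7% in IVF. In SCNT the order by group mean was Gpx1, Gpx4, Prdx1, Sod1, Sod2, Cat, Hmox1, Gclm, Gclc and Nqo1. Gclm and Gclc, with a ratio of means of 1.01, were the only neighbours whose SCNT libraries overlapped. The order in IVF was the same, no neighbours overlapped there, and Gclm was 2.24 times as high as Gclc. Gpx1 exceeded Gpx4 by 1.87 times in SCNT and by 1.72 times in IVF.

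Sod1, the copper-zinc superoxide dismutase of the cytosol, had 151 and 155 FPKM in SCNT libraries 1 and 2, against 222 and 180 FPKM in IVF libraries 1 and 2. The SCNT libraries lay close together and below both IVF libraries, with means of 153 ± 2.74 and 201 ± 29.9 FPKM (SD, n = 2 each). Its log2 difference of -0.39 ± 0.20 (SE) did not pass (limma adjusted p = 0.852), and without IVF library 1 it was -0.24. Sod2, the manganese dismutase of mitochondria, had 95.3 and 121 FPKM in SCNT, against 102 and 143 FPKM in IVF. Here library 2 was the higher in each group and the groups overlapped, with a difference of -0.17 ± 0.25 (adjusted p = 0.9996). The ratio of Sod1 to Sod2 within a library, which no scaling between libraries can move, was 1.58 and 1.28 in SCNT, against 2.18 and 1.26 in IVF.

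Cat, the haem enzyme of peroxisomes that splits hydrogen peroxide, had 24.3 and 21.8 FPKM in SCNT, against 23.8 and 20.5 FPKM in IVF. The groups overlapped and the difference was 0.058 ± 0.18 (limma adjusted p = 0.9996). Gpx1 had 2312 and 2392 FPKM in SCNT, against 2373 and 1951 FPKM in IVF, so IVF library 1 lay between the SCNT libraries and the difference was 0.13 ± 0.24. Gpx4, the selenoenzyme that reduces lipid peroxides in membranes and guards against ferroptosis, had 986 and 1529 FPKM in SCNT, against 1035 and 1482 FPKM in IVF. Its group means were nearly equal, at 1257 ± 383 and 1259 ± 316 FPKM (SD, n = 2 each), while library 2 exceeded library 1 by 0.63 (log2) in SCNT and by 0.52 in IVF. Prdx1, a cytosolic peroxiredoxin that draws its electrons from thioredoxin, had 489 and 589 FPKM in SCNT, against 551 and 680 FPKM in IVF. It too was higher in library 2 of each group, and the difference was -0.19 ± 0.23 (adjusted p = 0.9996). Without IVF library 2 the difference turned to 0.070 for Sod2, -0.045 for Cat, -0.013 for Gpx1 and 0.25 for Gpx4. Without SCNT library 1 it turned to -0.015 for Cat and 0.30 for Gpx4.

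Gclm encodes the modifier subunit of glutamate-cysteine ligase and Gclc the catalytic subunit, and these partners differed in direction. Gclm had 4.32 and 4.66 FPKM in SCNT, against 9.22 and 6.72 FPKM in IVF. Both SCNT libraries were below both IVF libraries, the ratio of means was 0.563, and the difference was -0.70 ± 0.21 (unadjusted p = 0.0207, limma adjusted p = 0.536). It was -0.94 between the libraries numbered 1 and -0.45 between those numbered 2. Gclc had 5.29 and 3.63 FPKM in SCNT, against 3.93 and 3.19 FPKM in IVF. The groups overlapped, and the difference of 0.25 ± 0.23 came to 0.026 without SCNT library 1. Within a library the ratio of Gclc to Gclm was 1.23 and 0.779 in SCNT, against 0.426 and 0.475 in IVF, so the lowest SCNT ratio was above the highest IVF ratio. The ratio of Hmox1 to Nqo1 was 28.9 and 13.1 in SCNT, against 7.11 and 6.37 in IVF, and did not overlap either. Gclm and Nqo1, the denominators here, were themselves separated between the groups, so these ratios add no independent result. The ratio of Gpx1 to Gpx4 was 2.34 and 1.56 in SCNT, against 2.29 and 1.32 in IVF, and overlapped, as did that of Sod1 to Sod2. These 4 ratios were the ones computed, and none was tested. In the GENCODE annotation an exon of Gclm overlaps the pseudogene Gm6061 on its own strand and Gm17494 on the opposite strand, so reads there could be shared.

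Nqo1, which reduces quinones, was the lowest of the 10 genes. It had 0.620 and 0.783 FPKM in SCNT, against 1.62 and 1.50 FPKM in IVF. The libraries of a group lay close together and the groups were apart, with means of 0.702 ± 0.115 and 1.56 ± 0.0826 FPKM (SD, n = 2 each) and a ratio of 0.450. Its difference was -0.59 ± 0.19 (unadjusted p = 0.0262, limma adjusted p = 0.569). The mean over the 4 libraries was 1.13 FPKM, just above the limit of 1 FPKM for testing, which the SCNT libraries alone would not have reached. At this level the estimate depends on the pseudocount, at -1.06 with 0.1 and -0.20 with 5. Hmox1, the inducible haem oxygenase, which breaks haem down to biliverdin, iron and carbon monoxide, had 17.9 and 10.3 FPKM in SCNT, against 11.5 and 9.57 FPKM in IVF. SCNT library 1 stood above the other 3 libraries, and the difference of 0.35 ± 0.29 (adjusted p = 0.986) turned to -0.026 without it. That library also had the highest fibroblast marker sum (6.34 FPKM, of it 3.38 FPKM from Col1a1), whose part in this value was not tested.

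**Figure D2:**
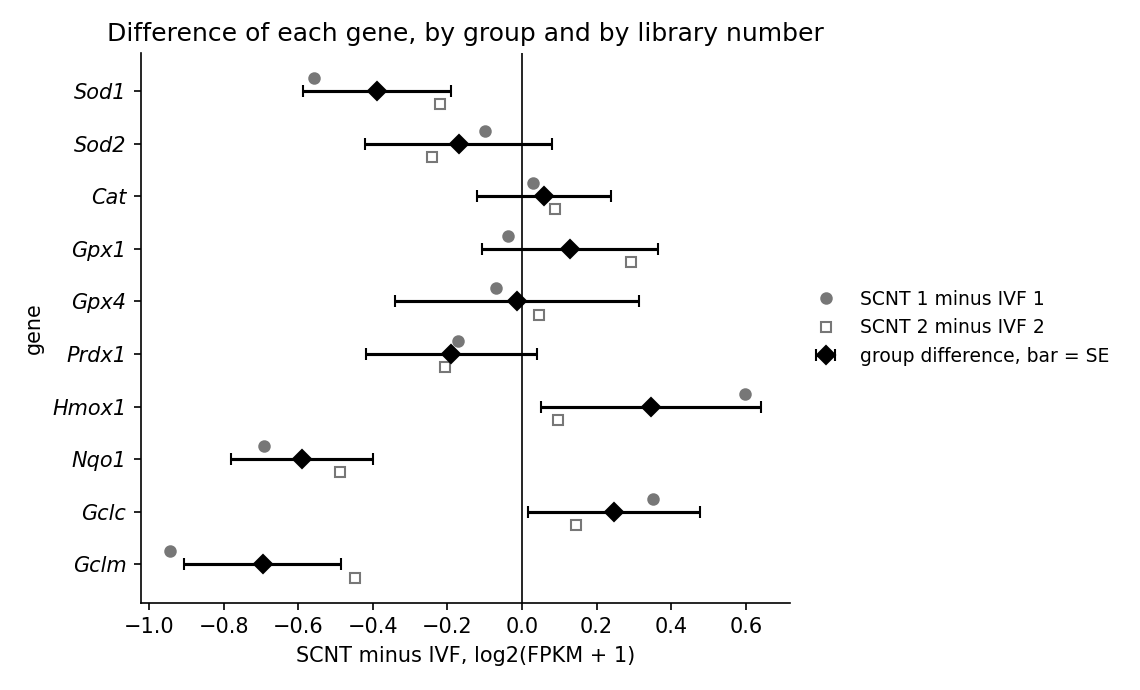
SCNT minus IVF difference of each gene in log2(FPKM + 1); diamonds are the group difference with its SE, grey circles SCNT 1 minus IVF 1 and open squares SCNT 2 minus IVF 2. Gclm, Nqo1, Sod1, Prdx1 and Sod2 lie below 0 by all 3 measures, and Cat, Hmox1 and Gclc above 0 by all 3. No gene passed the adjusted threshold.

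Upstream sequences were read for the 3 separated genes, since Nrf2 acts through the antioxidant response element, searched here as TGACNNNGC on both strands in RefSeq promoter entries of the GRCm38.p6 build, from 250 bases before to 50 bases after a transcription start. The 250 bases before the start are shown 5′ to 3′ on the strand of each gene, with motif matches in capitals, from chr3:122245307-122245556 (plus strand) for Gclm, chr16:90220512-90220761 (plus strand) for Sod1 and chr8:107403206-107403455 (minus strand) for Nqo1.
Gclm: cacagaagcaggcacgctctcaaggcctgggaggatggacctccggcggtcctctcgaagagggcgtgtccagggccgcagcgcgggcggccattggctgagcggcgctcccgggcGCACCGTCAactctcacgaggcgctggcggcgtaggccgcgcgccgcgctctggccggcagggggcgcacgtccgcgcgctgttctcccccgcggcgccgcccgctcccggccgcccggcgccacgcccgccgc
Sod1: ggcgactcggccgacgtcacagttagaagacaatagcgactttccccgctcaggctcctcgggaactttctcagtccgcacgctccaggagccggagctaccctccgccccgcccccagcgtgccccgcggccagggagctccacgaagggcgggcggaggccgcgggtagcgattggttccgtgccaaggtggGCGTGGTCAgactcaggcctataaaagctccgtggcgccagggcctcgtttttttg
Nqo1: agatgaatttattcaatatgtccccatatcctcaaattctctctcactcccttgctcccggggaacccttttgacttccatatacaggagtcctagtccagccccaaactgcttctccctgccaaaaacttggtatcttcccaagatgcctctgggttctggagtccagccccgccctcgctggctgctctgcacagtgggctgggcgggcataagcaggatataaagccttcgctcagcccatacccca
Gclm and Sod1 each held 1 match, both as the reverse complement, starting 134 and 56 bases before the start. The Nqo1 window held no match, and bases farther upstream were not searched for any gene. Of 8 members with an entry, 3 had a match, the other one being Prdx1, where the match overlaps the AP-1 motif TGAGTCA; Hmox1 and Gclc had no entry. Matches occurred for 14% of all 27025 symbols and in 12.4% of all 32851 entries. A match describes letters and not a bound site. Among the named pathway genes, Txnrd1, Me1, Pgd, Msrb2, Blvra and Nfe2l2 also had a match in an entry. Prdx6, Gsta4 and Gsr had no entry, and the rest, with Gstp1, Sqstm1 and Fth1 among them, had no match. Of all pathway genes with an entry, 15 of 71 (21.1%) had a match.

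Pathway genes outside the 10 were described from 7 lists by role, with 83 genes in the files and 72 tested. None of the 72 passed the adjusted threshold with limma. At an unadjusted p under 0.05 there were 8 higher and 4 lower in SCNT, where 4.25% and 2.84% of all tested genes were. SCNT stood wholly above IVF for 15 of the 72 genes and wholly below for 10, where 18.3% and 15.1% of all tested genes did. These counts of separated genes lie near the background, while the counts by unadjusted p lie above theirs. The median over the 72 was 0.0086, against 0.013 over all genes tested.

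**Figure D3:**
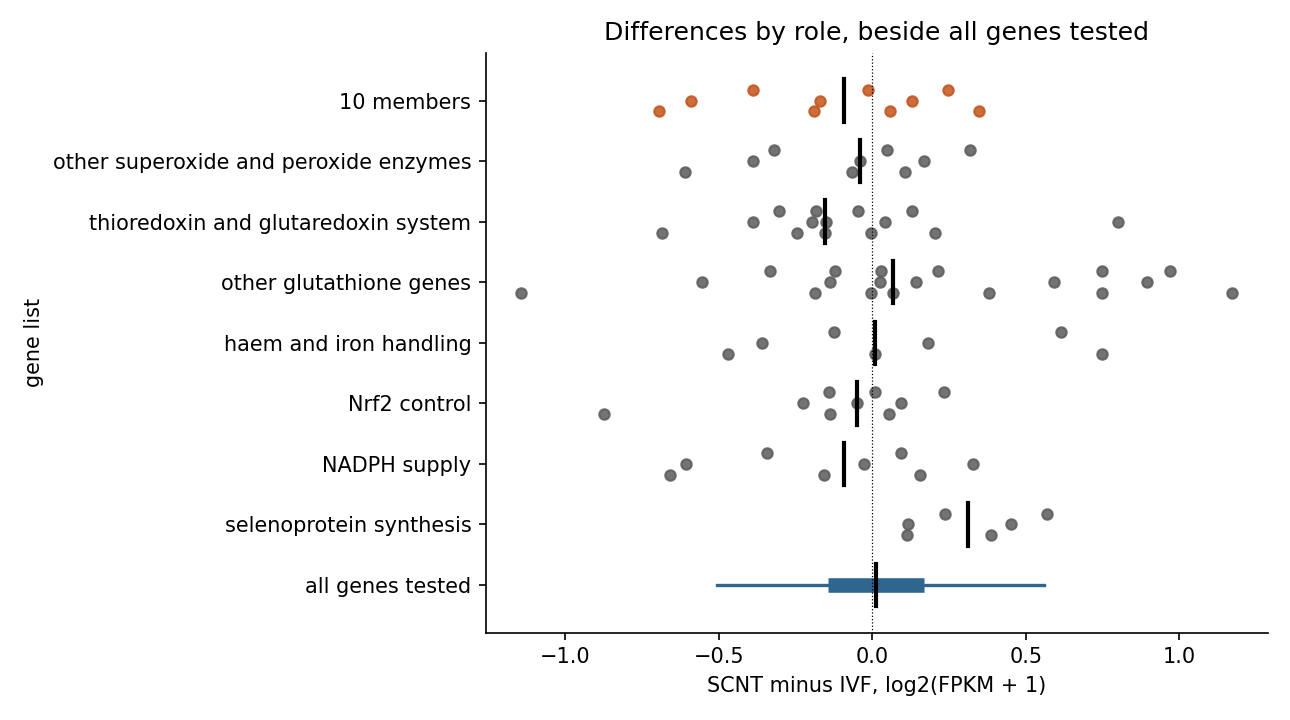
SCNT minus IVF differences in log2(FPKM + 1) for the tested genes of each list (points, spread vertically for legibility only) with the list's median as a black line; the lowest line shows all 11039 genes, its thick bar from the 25th to the 75th and its thin line from the 5th to the 95th percentile. Medians lie between -0.15 for thioredoxin and glutaredoxin genes and 0.31 for selenoprotein synthesis genes.

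Among the other superoxide and peroxide enzymes, 9 of 13 were tested, with a median of -0.040. The smallest unadjusted p-values there belonged to the secreted peroxidase Gpx3, with 29.6 and 41.6 FPKM in SCNT against 39.8 and 53.8 FPKM in IVF, to Prdx6 and to the epithelial peroxidase Gpx2. Gpx2 had 10.6 FPKM in SCNT library 1, against 33.4 FPKM in SCNT library 2 and 24.3 and 35.7 FPKM in IVF, so 1 library set its difference of -0.61 ± 0.54. Prdx6, a peroxiredoxin that also acts on phospholipids, differed by -0.32 ± 0.23.

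Of the thioredoxin and glutaredoxin genes, 14 of 15 were tested, 10 with estimates below 0 and 4 above. Txnrd1, the selenoenzyme that recharges cytosolic thioredoxin, had 14.4 and 13.7 FPKM in SCNT, against 24.8 and 21.7 FPKM in IVF. All SCNT values were below all IVF values, by -0.69 ± 0.17 (unadjusted p = 0.0102, limma adjusted p = 0.459). Msrb2, a mitochondrial methionine sulfoxide reductase, was at 27.3 and 35.7 FPKM in SCNT, against 14.8 and 20.7 FPKM in IVF, a difference of 0.80 ± 0.25 (adjusted p = 0.543). Glrx, glutaredoxin, which removes glutathione from proteins, differed by -0.30 ± 0.21.

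The other glutathione genes numbered 22, of which 19 were tested, and their differences ranged from -1.14 to 1.17, the widest of the 7 lists. Both ends were glutathione S-transferases, which join glutathione to reactive compounds. Gstp1 had 99.4 and 78.3 FPKM in SCNT, against 181 and 212 FPKM in IVF, and gave the smallest unadjusted p of the lists (-1.14 ± 0.21, unadjusted p = 0.00290, limma adjusted p = 0.316). Its near-identical neighbour Gstp2, named outside the rule, had 85.2 and 131 FPKM in SCNT, against 124 and 262 FPKM in IVF. How shared reads were divided between them is not known, but the sum of both was 185 and 210 FPKM in SCNT, against 305 and 474 FPKM in IVF, and did not overlap either. Gstk1, a transferase of mitochondria and peroxisomes, was at 21.3 and 17.8 FPKM in SCNT, against 6.17 and 10.6 FPKM in IVF (1.17 ± 0.28, adjusted p = 0.439). Gsta4, which clears the lipid peroxidation product 4-hydroxynonenal, was at 281 and 257 FPKM in SCNT, against 155 and 164 FPKM in IVF (0.75 ± 0.18, adjusted p = 0.451).

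Gss, Gsr and Slc7a11, named whatever their values, overlapped between the groups. Gss, glutathione synthetase, had 69.4 and 88.5 FPKM in SCNT, against 75.2 and 78.7 FPKM in IVF. Gsr, the reductase that restores glutathione, had 14.1 and 13.0 FPKM in SCNT, against 16.0 and 13.8 FPKM in IVF. Slc7a11, the cystine transporter subunit, was at 0.0468 and 0.0342 FPKM in SCNT, against 0.0485 and 0.0140 FPKM in IVF, and was too low to test. Chac1, which breaks glutathione down and was singled out after its values were seen, had 6.23 FPKM in SCNT library 1, against 1.26 FPKM in SCNT library 2 and 0.888 and 1.27 FPKM in IVF, so it stood apart in the same library as Hmox1.

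Among haem and iron genes, both biliverdin reductases, which act after haem oxygenase, had higher values in SCNT. Blvrb had 151 and 141 FPKM in SCNT, against 74.5 and 100.4 FPKM in IVF (0.75 ± 0.22, limma adjusted p = 0.524). Blvra was at 74.2 and 67.6 FPKM in SCNT, against 41.2 and 51.2 FPKM in IVF (0.61 ± 0.20, adjusted p = 0.564). Fth1, the heavy chain of the iron store ferritin, had 1245 and 1297 FPKM in SCNT, against 1758 and 1760 FPKM in IVF. The groups were apart with close libraries, and the difference of -0.47 ± 0.21 did not pass (adjusted p = 0.788). The list's median was 0.0085.

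Nrf2 itself, encoded by Nfe2l2, was at 38.6 and 27.8 FPKM in SCNT, against 30.0 and 31.4 FPKM in IVF, and the SCNT libraries enclosed the IVF values. Keap1 was at 18.7 and 20.1 FPKM in SCNT, against 18.5 and 14.4 FPKM in IVF (0.23 ± 0.20). The ubiquitin ligase scaffold Cul3, which works with Keap1, differed by -0.23 ± 0.20. Sqstm1, the autophagy receptor p62, which binds Keap1, had 56.8 and 70.6 FPKM in SCNT, against 124 and 110 FPKM in IVF. Every SCNT library was below every IVF library, by -0.87 ± 0.20 (unadjusted p = 0.00697, limma adjusted p = 0.412). An exon of Sqstm1 overlaps Mrnip on the opposite strand, so their reads cannot be told apart if strand was not used. The same holds for smaller antisense overlaps of Keap1, Gss, Me1 and Eefsec.

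NADPH feeds both glutathione and thioredoxin reductases. Me1, the cytosolic malic enzyme that makes it, had 35.6 and 36.3 FPKM in SCNT, against 58.2 and 52.5 FPKM in IVF, a separation of -0.61 ± 0.17 (unadjusted p = 0.0154, limma adjusted p = 0.506). Idh1, cytosolic isocitrate dehydrogenase, had 59.6 and 29.4 FPKM in SCNT, against 103 and 43.2 FPKM in IVF, so it was lower in library 2 of each group and overlapped between groups. Pgd of the pentose phosphate pathway differed by -0.34 ± 0.25, and the list's median over 8 tested genes was -0.094. Without IVF library 1 Pgd came to -0.082 and the median to 0.027, and without SCNT library 2 the median came to 0.014.

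Selenoprotein synthesis genes, which build the selenocysteine that Gpx1, Gpx4 and Txnrd1 need, had estimates above 0 in 6 of 6 tested genes, with a median of 0.31. Pstk, the kinase that acts on the serine-charged selenocysteine tRNA, had 41.5 and 51.0 FPKM in SCNT, against 29.2 and 32.3 FPKM in IVF (0.57 ± 0.19, unadjusted p = 0.0304, limma adjusted p = 0.595). An exon of Pstk overlaps Ikzf5 on the opposite strand over 3392 bases, so reads there cannot be told apart if strand was not used. Trnau1ap, a protein bound to that tRNA, had 41.2 and 37.6 FPKM in SCNT, against 30.1 and 29.6 FPKM in IVF, and Eefsec, the elongation factor that brings it to the ribosome, differed by 0.45 ± 0.25. Groups were apart, with SCNT higher, for 4 of the 6 genes, where 18.3% of all tested genes were, and 5766 of all 11039 tested genes had estimates above 0.

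**Figure D4:**
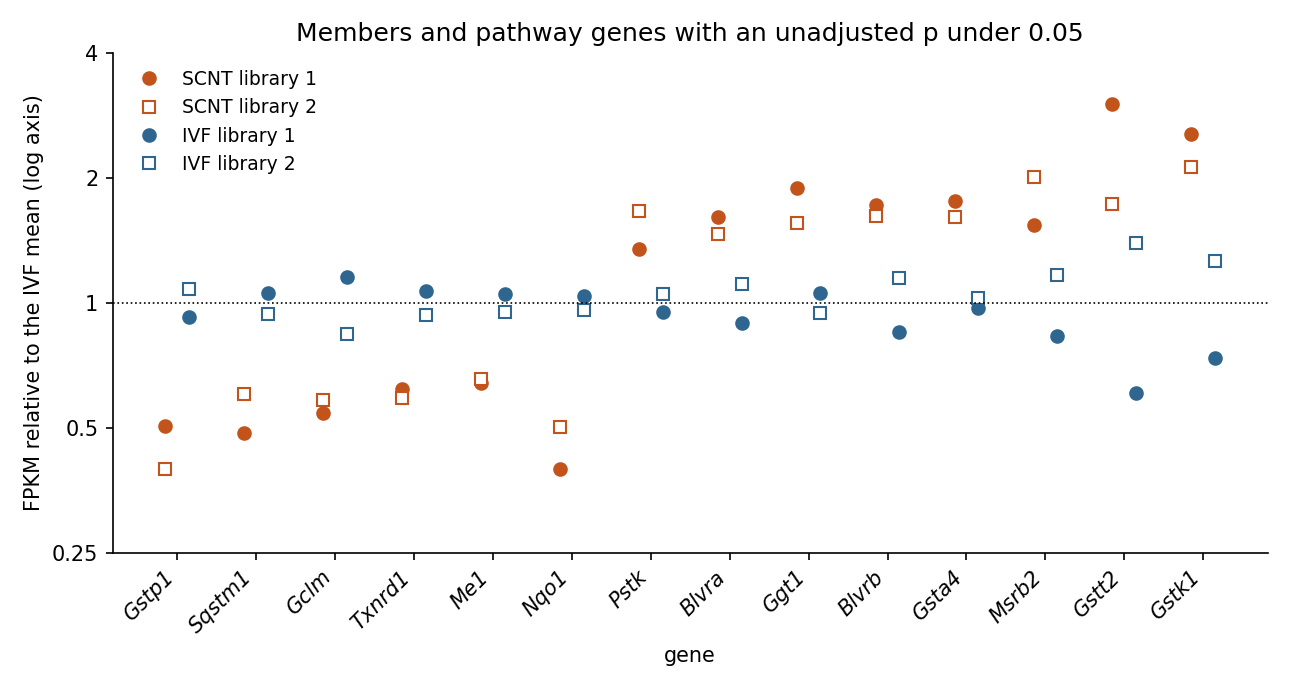
FPKM of each library relative to the IVF mean of the gene (log axis) for the 2 members and 12 pathway genes with an unadjusted p under 0.05, SCNT left of IVF, ordered by their log2 difference. Gstp1, Sqstm1, Gclm, Txnrd1, Me1 and Nqo1 lie at 0.398 to 0.655 in SCNT, and the other 8 genes, among them Ggt1 and Gstt2 from outside the naming rule, lie at 1.35 to 3.01; none passed the adjusted threshold.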

How the data were processed

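Each library was made from 6 embryos, pooled and lysed without RNA purification; cDNA was amplified with a SMARTer kit, sheared and turned into a NEBNext library, per the labels' protocols. The submitters' processing notes list the mm9 build with TopHat2 2.0.14, Bowtie2 2.1.0 and also Cufflinks 2.2.1. The deposited values were taken to be FPKM, a unit inferred from Cufflinks and from the values. Annotation, filters, strand and any scaling across libraries are not given in the sources here. Low genes are noisy after such amplification, and FPKM moves when a few abundant genes change.

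Samples were grouped by title. Genes with a mean of at least 1 FPKM over the 4 libraries, 11039 in all, were fitted on log2(FPKM + 1) by group with limma 3.58.1 (R 4.3.3), using its mean-variance trend, and p was adjusted over all of them by Benjamini-Hochberg (threshold 0.05). The script was tested on simulated data. The members and lists were chosen with earlier results of these data known. Named were all members, the 3 smallest p-values of each pathway list, and Nfe2l2, Keap1, Txnrd1, Gsr, Gss and Slc7a11; others are marked where they appear. Alternatives were 2 pseudocounts, 2 filters, 2 scalings, no trend, a replicate block and leaving out each library. Absolute depth is unknown. Judged from genes under 0.5 FPKM, the FPKM value of 1 fragment in SCNT was 0.966 (library 1) and 1.02 (library 2) times that in the IVF library of the same number. These were the most common ratios, held by 11.4% and 3.56% of such genes, so the value for library 2 is the less certain. Library 2 over library 1 gave 0.901 in SCNT and 0.853 in IVF, held by 2.45% and 1.92%. Promoters came from RefSeq (GRCm38.p6) and exon overlaps from GENCODE M21. These builds differ from mm9, so no gene coordinates were carried over.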

Additional observations from a re-analysis of the deposited data

How the results depend on the processing

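Under all 12 alternatives run, none of the 10 members and none of the pathway genes passed the adjusted threshold. Gclm, Nqo1, Sod1 and Prdx1 were lower and Gclc higher in SCNT under every alternative that tested them (Nqo1 and Gclc were not tested with the filter at 5 FPKM); Gclm ranged from -0.90 to -0.44 and Sod1 from -0.54 to -0.24. Of 118 values of members under the alternatives, 7 turned direction, all when 1 library was left out. With 1 library left out, Sod2 ranged from -0.41 to 0.070, Cat from -0.045 to 0.16, Gpx1 from -0.013 to 0.27, Gpx4 from -0.33 to 0.30 and Hmox1 from -0.026 to 0.72. Among pathway genes, Gpx2 ranged from -1.39 to 0.17, Nfe2l2 from -0.14 to 0.32 and Gss from -0.15 to 0.20. Gss also came to -0.028 when rescaled without microRNA and small nucleolar RNA genes. The cause was not tested. The median of the 10 members ranged from -0.33 to -0.021. With 1 library left out the medians of the other superoxide and peroxide enzymes, other glutathione genes, haem and iron genes and NADPH genes reached 0.051, -0.0059, -0.037 and 0.027, each on the other side of 0; that of haem and iron genes did so under both scalings too (-0.011 and -0.042). Over all genes, 8 were called higher and 6 lower. The higher calls numbered 5 without a filter and 3 under that rescaling, which also leaves those genes out of the test. Leaving out 1 library gave 13 to 31 higher and 11 to 30 lower calls; the lone library of a group is then assumed to vary like the others. With the replicate number as a block, 12 genes were called higher and 8 lower, and the lowest adjusted p among the members was 0.195, for Gclm. The numbers are not stated to pair the libraries, although library 2 minus library 1 correlated between SCNT and IVF across the 11039 genes (Pearson r = 0.309) and across the 10 members (r = 0.678); genes are not independent replicates. No counting error can be given for low genes such as Nqo1, since the files hold no depth.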
